A study of Rattus norvegicus with 3 samples.

Results

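The genes described here are those that encode collagen chains and the enzymes and chaperones that fold, modify, trim and cross-link them. They were chosen by name: every symbol of the form Col, a number, a and a number, the prolyl 4-hydroxylase subunits P4ha1 to P4ha3, the lysyl hydroxylases Plod1 to Plod3, the lysyl oxidase genes, and a fixed list of 14 further processing genes. Of the 17337 genes in the deposited table, 51 met the rule, 27 of them collagen chain genes and 24 processing genes. The RefSeq table of rat genes holds 68 symbols of this kind, and the other 17, among them Col4a2, Col4a5, Col6a1, Col6a3 and Col12a1, were not analysed here.

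RNA was measured in 3 poly(A)-selected, stranded libraries of Schwann cell precursors, the early glia of peripheral nerve, cultured from dorsal root ganglia of wild-type embryonic rats. The cultures were kept in a modified Sato medium based on DMEM and were not treated. All 3 libraries belong to 1 group, so the data give levels within these cultures and no contrast between conditions. Nothing in the labels ties the libraries to separate animals or cultures, and p-values therefore cover the spread from library to library, possibly a technical one.

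Collagens are trimers, most of them secreted, in which each chain carries repeats of glycine followed by 2 further residues. The chains are hydroxylated on proline and lysine and folded in the endoplasmic reticulum. After export, fibril-forming chains are trimmed at both ends by proteinases, and lysyl oxidases cross-link collagen outside the cell. In peripheral nerve, fibrils of types I, III and V lie between the nerve fibres, and type IV collagen forms the network of the basement membrane that Schwann cells deposit around axons.

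Levels are given as TPM, a length-corrected unit with a sum of 1000000 in each library, so that genes can be compared with each other. Values for a gene are listed in the order of replicates 1, 2 and 3, and errors are SD over these 3 libraries. Total counts were 15309526, 14139074 and 14162738, and the 51 genes held 3.69% to 3.77% of the counts in each library and 1.84 ± 0.0110% of the TPM. The chain genes alone held 1.14 ± 0.0105% of the TPM. All 9 marker genes fixed for Schwann cell precursors were above 1 TPM, with a summed level of 10064 to 10295 TPM. Of the 12 fibroblast markers measured, which include no collagen, 11 were above 1 TPM and none was at 0, with a summed level of 2931 to 3056 TPM. By the same test, described below, 78.4% of all genes with a count were above 1 TPM. In bulk libraries, fewer cells of a type and less RNA per cell cannot be told apart.

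Most of the genes were expressed, and many at a high level. By limma against 1 TPM (moderated one-sample test of log2(TPM + 1), two-sided, Benjamini-Hochberg adjusted p under 0.05), 43 of the 49 genes with a count were above and 6 below. Among all 13345 genes with a count, 78.4% were called above and 17.8% below. The 6 genes below include Col1a2 and Crtap, each listed at 2 places in the table. The genes above were 21 chain genes and 22 processing genes. At 100 TPM or more in each library were 24 of the 51 genes (47.1%), 11 of them chain genes and 13 processing genes, against 11.7% of all genes listed. The median level was 26.9 TPM for the chain genes and 121 TPM for the processing genes, beside 8.38 TPM for all genes listed and 21.7 TPM for genes with a count. In the histogram of the whole table, the chain genes spread over the whole range and the processing genes mostly lay in its upper part.

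**Figure D1:**
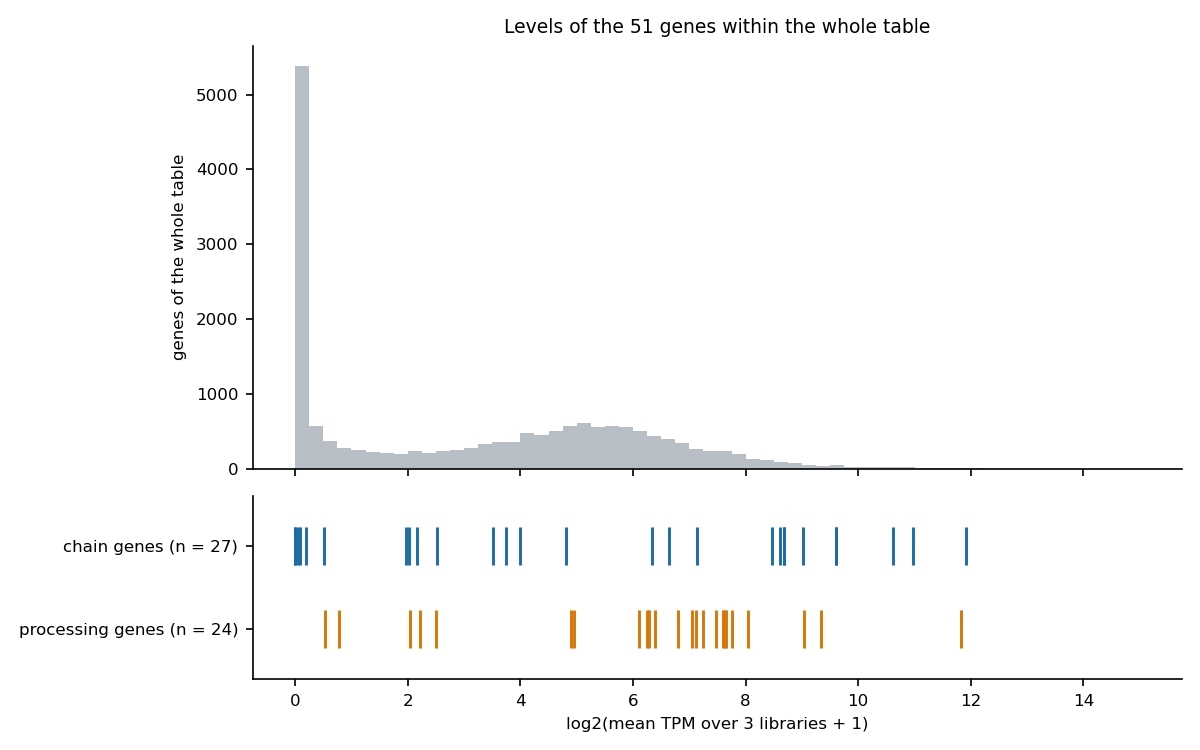
The upper panel is a histogram of log2(mean TPM + 1) over all 17337 genes, and the lower panel marks each of the 27 chain genes and 24 processing genes on the same axis. Chain genes reach from no count to the highest mark at Col1a1, and 13 of the 24 processing genes lie at 100 TPM or more.

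Among the 51 genes measured, the output was concentrated in few. Col1a1, Serpinh1, Col3a1 and Col18a1 together held 60.01% of the TPM of the 51 genes, and all 4 ranked among the 100 highest genes of the table, at ranks 11, 13, 32 and 62. By role, the fibril-forming chains held 42.0 ± 0.298%, the chaperone 19.7 ± 0.211%, the multiplexins 8.60 ± 0.101% and the lysyl oxidases 5.76 ± 0.119%. The prolyl 4-hydroxylase subunits, which act on every collagen, held 1.35 ± 0.0251%. Without the correction for gene length, the fibril-forming chains held 55.8% of the counts and the chaperone 9.44%. All these shares take Col1a2, a gene listed at 2 places, at its listed mean of 0.137 TPM. They also leave out the chain genes not analysed here, among them Col4a2, Col6a1 and Col6a3.

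**Figure D2:**
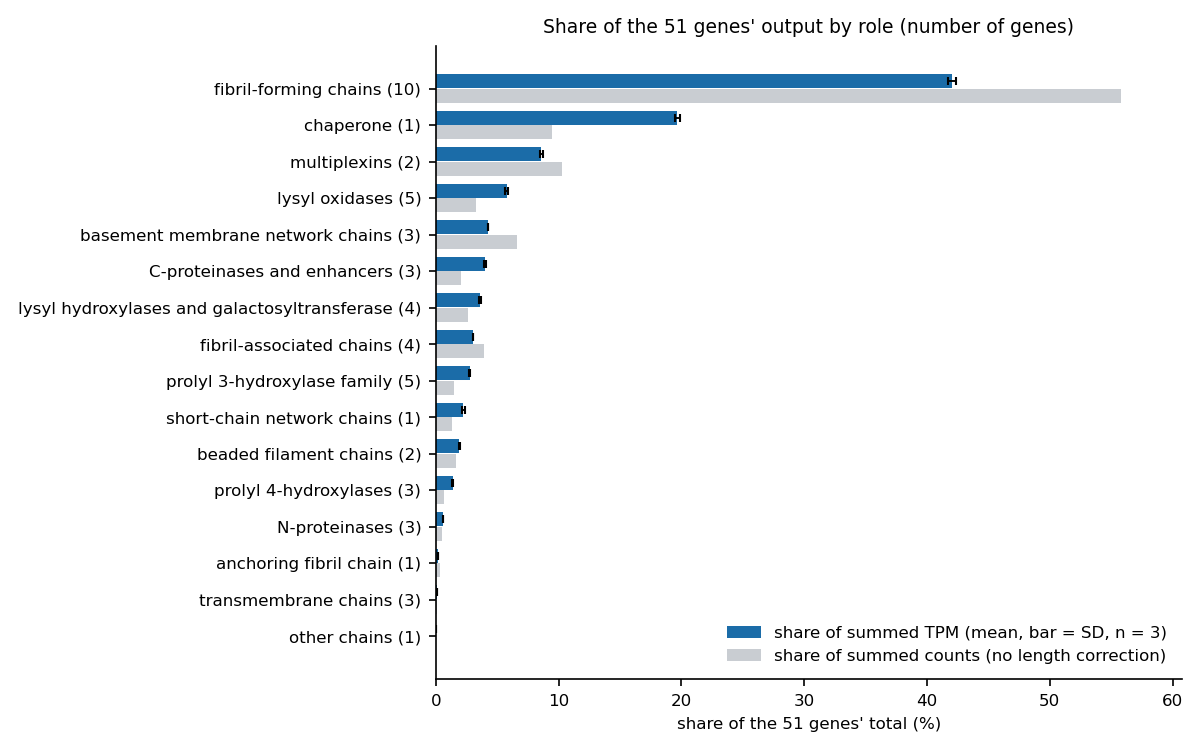
Bars give the share of the 51 genes' summed TPM by role (mean, error bars SD, n = 3) and, in grey, the share of their summed counts, with the number of genes in brackets. The fibril-forming chains are first on both scales, and the chaperone Serpinh1 alone comes second by TPM at 19.7%. Col1a2 enters at its low listed level, and chain genes not analysed here are left out.

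The 3 genes shown here are Col4a1, the highest type IV chain gene measured, Col4a3, one with no count, and Serpinh1, the abundant chaperone gene. Their sequences before the transcription start are given. Each is the 250 bases upstream of the start in RefSeq, build GRCr8, written 5′ to 3′ on the gene's strand. They lie at chr16:84885347-84885596 (plus strand), chr9:91323740-91323989 (plus strand) and chr1:163062977-163063226 (minus strand). Capitals mark matches, on either strand, to 4 short motifs: GGGCGG (the GC box), CCAAT (the CCAAT box), TATAA (the TATA box) and GAANNTTC, which has the form of the core of a heat shock element.
Col4a1: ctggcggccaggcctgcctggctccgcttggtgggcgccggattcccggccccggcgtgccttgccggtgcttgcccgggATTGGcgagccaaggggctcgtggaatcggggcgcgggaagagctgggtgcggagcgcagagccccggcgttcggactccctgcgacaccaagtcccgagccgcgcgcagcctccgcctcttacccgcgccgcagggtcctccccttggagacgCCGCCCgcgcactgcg
Col4a3: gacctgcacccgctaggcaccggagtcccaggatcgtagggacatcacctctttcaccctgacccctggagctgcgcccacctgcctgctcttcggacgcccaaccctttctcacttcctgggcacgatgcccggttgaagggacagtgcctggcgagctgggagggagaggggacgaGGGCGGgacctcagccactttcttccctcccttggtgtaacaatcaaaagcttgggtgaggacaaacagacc
Serpinh1: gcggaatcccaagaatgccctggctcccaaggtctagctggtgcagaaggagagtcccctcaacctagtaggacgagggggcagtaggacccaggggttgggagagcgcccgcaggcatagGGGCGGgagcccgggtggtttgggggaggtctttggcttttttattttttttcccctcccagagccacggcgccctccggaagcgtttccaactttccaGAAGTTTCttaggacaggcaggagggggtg
Col4a1 has an inverted CCAAT box 170 bases and an inverted GC box 16 bases before the start. Col4a3 has a GC box 72 bases before the start. Serpinh1 has a GC box 129 bases before the start and a match to GAANNTTC, which reads the same on both strands, 30 bases before it. No other match to the 4 motifs was found in these 3 windows.

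Upstream sequences were matched by symbol and gene identifier for 43 of the 51 genes. The genes with no entry were Col1a1, Col3a1, Col2a1, Col6a2, Col14a1, Bmp1, Loxl2 and Lox. A GC box on either strand was found in 27 of the 43 windows (62.8%), beside 30.5% of all 33469 RefSeq windows. Those 33469 windows were not limited to expressed genes or to genes of the deposited table. CCAAT was found in 9 (20.9%), beside 34.0% of all, TATAA in 8 (18.6%), beside 23.97%, and GAANNTTC in 5 (11.6%), beside 7.23%. The median number of CG dinucleotides in a window was 13, beside 5 over all windows. These are matches of letters and were not tested for use by any factor.

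Among the fibril-forming chains, 9 of 10 genes were above 1 TPM. Col1a1, which encodes the alpha 1 chain of type I collagen, the main fibril of bone, skin and nerve, was at 3774, 3849 and 3903 TPM. It lies on chromosome 10 of rn6 from 82745801 to 82762790 on the plus strand (NCBI gene 29393, 51 exons). Col3a1, the chain of the homotrimeric type III collagen that often shares fibrils with type I, was at 1979, 2001 and 2047 TPM. Its level was below that of Col1a1 in every library, and the values of the 2 genes did not overlap.

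Type V collagen, which starts fibrils and limits their diameter, was represented by all 3 of its chain genes. Col5a1 was at 762, 796 and 775 TPM. Col5a2 was at 537, 503 and 518 TPM. Col5a3, a chain with a narrower distribution that is known from Schwann cells, was at 383, 394 and 391 TPM. The order Col5a1, Col5a2, Col5a3 was the same in every library, with no overlap between the genes. The log2 ratio of Col5a1 to Col5a2 was 0.58 ± 0.08, and that of Col5a1 to Col5a3 was 0.998 ± 0.0150. Col3a1 and Col5a2 are neighbours on chromosome 9 that face each other across 31866 bases, and their mean levels were 2009 and 519 TPM.

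The remaining fibril-forming chains were lower. Col11a1, a chain of the cartilage fibril collagen XI that also occurs with type V chains elsewhere, was at 104, 94.9 and 97.2 TPM. Its partner Col11a2 was at 3.14, 3.54 and 3.78 TPM, a log2 ratio of 4.83 ± 0.20. Col27a1, another cartilage-associated fibril chain, was at 84.8, 79.2 and 76.2 TPM. Col2a1, the main chain of cartilage fibrils, was at 3.37, 2.66 and 3.20 TPM. Of the markers fixed for chondrocytes and osteoblasts, Sox9 was above 1 TPM at 2.52 ± 0.0676, Acan was below at 0.179 ± 0.117, Sp7 and Bglap passed in neither direction and Matn1 had no count. Their summed level was 4.26 to 5.83 TPM.

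Col1a2, whose product joins with 2 Col1a1 chains in type I collagen, was listed at 0.182, 0.114 and 0.114 TPM, from counts of 12, 7 and 7. By limma it was below 1 TPM (log2 difference -0.82, adjusted p = 6.22e-06). The TPM ratio of Col1a1 to Col1a2 was 28111, with a counting interval of 19186 to 43034 for the Col1a2 counts alone. The table lists Col1a2 at 2 places, and how far its low level comes from that listing was not tested. The 2 places on chromosome 4 of rn6, at 29529854 to 29564781 and 31534225 to 31569152 on the plus strand, hold 52 exons each, and all 52 have equal lengths in order. Each place adds 4465 bases to the gene length, so the length used for TPM counts the gene 2 times. How reads that match both places were counted is not given in the sources used here.

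Crtap was the only other gene of the set with this layout. It encodes the cartilage associated protein, a partner of prolyl 3-hydroxylase 1 that is required for its activity. It was at 0.725, 0.346 and 0.259 TPM, from counts of 9, 4 and 3, and below 1 TPM by limma (log2 difference -0.48, adjusted p = 0.00216). That call was lost without replicate 2 (adjusted p = 0.0715) and without replicate 3 (adjusted p = 0.0584). A DESeq2 Wald test on the counts did not call it either (adjusted p = 0.179). Its exons lie on the minus strand of chromosome 8 at 122394451 to 122402198 and again at 122413597 to 122421455, with 3 exons and 840 bases at each place and all 3 lengths equal. In the RefSeq table of GRCr8, both Col1a2 and Crtap have 1 entry. Over the whole table, 418 genes were listed at 2 places, and 354 of them (84.7%) were below 1 TPM in every library, against 25.8% of 12609 genes listed at a single place with at least 4 exons.

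Of the type IV and type VI chain genes measured, 1 gene of each type carried nearly all of the signal. Other chain genes of these types, among them Col4a2, Col4a5, Col6a1 and Col6a3, were not analysed here. Col4a1, the alpha 1 chain of the type IV collagen of most basement membranes, was at 769, 776 and 782 TPM (chromosome 16 from 83522162 to 83632153). Col4a4, part of the specialised type IV network of the kidney filter, had 1 count in replicate 1 and none in replicates 2 and 3. It was below 1 TPM by limma (adjusted p = 3.66e-06) but not by a DESeq2 Wald test on the counts (adjusted p = 0.0781). Its listed length is 1152 bases over 7 exons, against 5020 bases over 52 exons for Col4a3. For Col4a4, 3 counts stand for 0.352 to 0.379 TPM per library. Col4a3, its partner in that network, had no count, which allows a level of up to 0.0809 to 0.0869 TPM per library at 3 counts, counting error only. Col4a3 and Col4a4 start 567 bases apart on opposite strands of chromosome 9. The basement membrane genes Dag1, Lamc1 and Lama4, which encode dystroglycan and 2 laminin chains, were at 821 ± 6.69, 636 ± 8.56 and 531 ± 10.5 TPM. All 8 measured genes of that partner list were above 1 TPM, beside 78.4% of all genes with a count.

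Col6a2, a chain of the beaded filaments of type VI collagen, was at 345, 362 and 350 TPM. Col6a4, a type VI chain of narrow distribution, had no count, which allows up to 0.0640 to 0.0688 TPM per library at 3 counts. Col8a1, a short-chain collagen that forms sheet-like networks, was at 432, 396 and 397 TPM, and replicate 1 was the highest. Col7a1, the anchoring fibril chain of skin, was at 27.4, 26.96 and 26.4 TPM.

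The fibril-associated chains, which sit on the surface of fibrils, split into abundant and rare genes. Col16a1 was at 401, 416 and 411 TPM, and Col14a1 was at 144, 131 and 142 TPM. Both belong to chains found beside fibrils in many soft tissues. Col9a2, a chain of cartilage type IX collagen, was at 12.6, 13.4 and 11.5 TPM. Its partner Col9a1 had counts of 0, 2 and 3 and was below 1 TPM by limma (log2 difference -0.91, adjusted p = 3.97e-06).

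Col18a1 was the most abundant of the measured chain genes outside the fibril-forming group. It encodes the basement membrane collagen whose end fragment is endostatin, and was at 1536, 1589 and 1570 TPM. Col15a1, the other gene of the multiplexin family, was at 14.7, 14.5 and 15.7 TPM. The log2 ratio of Col15a1 to Col18a1 was -6.71 ± 0.07. The transmembrane chains were low. Col23a1 was at 10.8, 10.5 and 9.84 TPM and Col13a1 at 2.80, 2.91 and 3.09 TPM. Col17a1, the collagen of epithelial hemidesmosomes, was at 0.573, 0.321 and 0.401 TPM and below 1 TPM by limma (log2 difference -0.49, adjusted p = 0.000443) but not by the DESeq2 Wald test (adjusted p = 0.106). Col26a1 was at 4.27, 5.55 and 4.32 TPM.

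**Figure D3:**
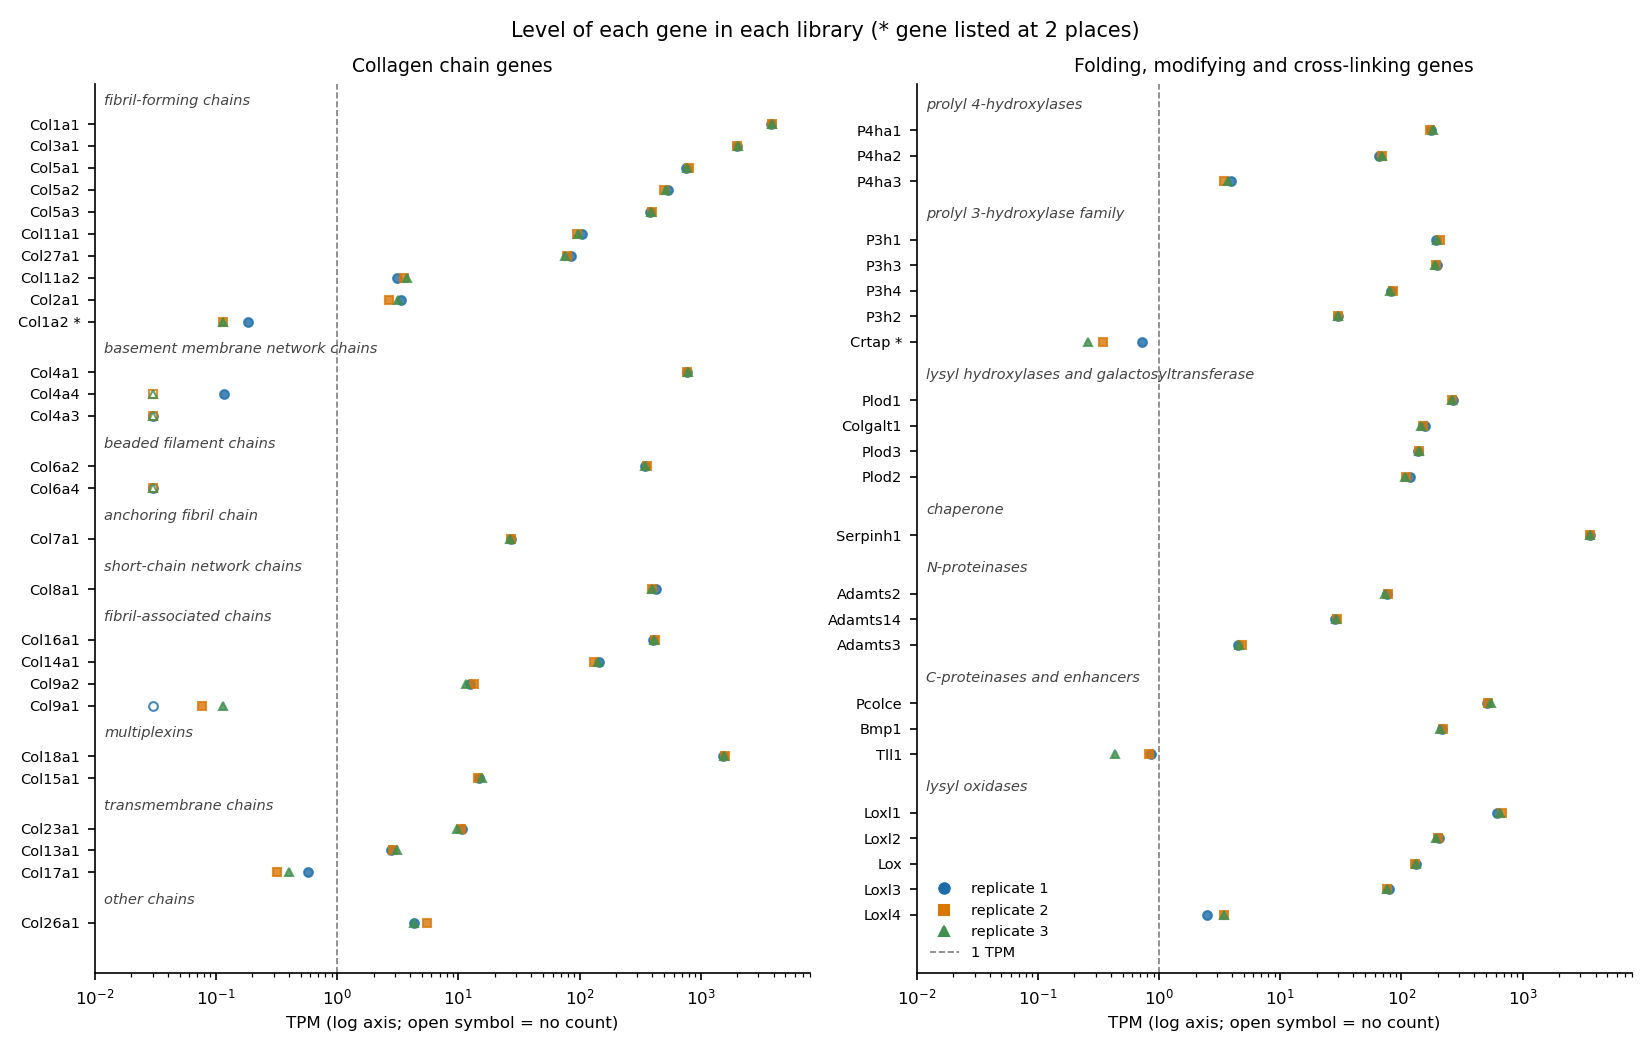
Points give the TPM of each gene in replicates 1, 2 and 3 on a log axis, grouped by role, with chain genes on the left, processing genes on the right and a dashed line at 1 TPM. Open symbols at the left edge are libraries with no count, and asterisks mark Col1a2 and Crtap, which the table lists at 2 places. For genes above 10 TPM the 3 libraries nearly coincide, and between genes of the same role the levels differ by up to several powers of 10.

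The processing genes were expressed in every step of the pathway. Serpinh1 encodes the chaperone Hsp47, which binds folded procollagen in the endoplasmic reticulum and was the most abundant processing gene. It was at 3628, 3618 and 3590 TPM (chromosome 1 from 164301010 to 164308307, minus strand, 6 exons). Its level was lower than that of Col1a1 in every library, with a log2 ratio of -0.09 ± 0.03. All 11 measured genes of a fixed list of further folding and collagen-binding partners were also above 1 TPM, beside 78.4% of all genes with a count. The highest was Sparc, which encodes a secreted collagen-binding glycoprotein, at 7338 ± 53.5 TPM. Next came the chaperone genes Hsp90b1 and Pdia3 at 1476 ± 61.5 and 1423 ± 44.97 TPM. In that list, P4hb, the shared beta subunit of the prolyl 4-hydroxylases, was at 1131 ± 16.3 TPM.

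The alpha subunits of the prolyl 4-hydroxylases make the hydroxyproline that keeps the triple helix stable at body temperature. P4ha1 was at 177, 173 and 182 TPM, P4ha2 at 65.3, 69.2 and 69.0 TPM and P4ha3 at 3.91, 3.42 and 3.68 TPM. The 3 genes did not overlap in any library. P4ha1 exceeded P4ha2 by a log2 ratio of 1.39 ± 0.06 and P4ha3 by 5.60 ± 0.09.

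The prolyl 3-hydroxylase family modifies a few prolines per chain. P3h1 was at 193, 206 and 196 TPM, and P3h3 at 196, 193 and 190 TPM. Their values overlapped, and P3h1 was lower in replicate 1 and higher in replicates 2 and 3. P3h4, which encodes a non-catalytic member that works with P3h3, was at 82.1, 85.0 and 81.3 TPM. P3h2, whose enzyme acts on type IV collagen, was at 30.03, 30.23 and 29.95 TPM. P3h1 was 448 times the listed level of its partner Crtap, a ratio that carries the limit of the 2 listed places. The counting interval was 276 to 783 for the Crtap counts alone, and single libraries gave 266 to 757. Ppib, the third partner of the P3h1 complex, was at 1123 ± 38.0 TPM.

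Lysyl hydroxylation prepares the residues that are later glycosylated or cross-linked, and all 4 genes of this step reached 100 TPM in each library. Plod1, whose enzyme acts on the helical part of the chain, was at 266, 261 and 259 TPM. Colgalt1, the galactosyltransferase of hydroxylysine, was at 156, 150 and 145 TPM. Plod3, which also adds sugars, was at 137, 139 and 140 TPM. Plod2, the enzyme of the chain ends, was at 117, 108 and 108 TPM. Plod1 was the highest of the 4 in every library, and its log2 ratio to Plod3 was 0.92 ± 0.03. The exons of Plod3 share 250 bases (9.08% of its length) with those of Znhit1 on the opposite strand, which was at 38.6 ± 0.362 TPM, and the strand setting of the counting is not given in the sources used here.

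The proteinases that trim the chain ends were led by the C-terminal step. Pcolce, which enhances the C-proteinase, was at 505, 515 and 544 TPM. Bmp1, the main C-proteinase, was at 217, 219 and 208 TPM. Tll1, a second proteinase of the same family, was at 0.859, 0.831 and 0.430 TPM, from counts of 30, 27 and 14. By limma Tll1 was below 1 TPM (log2 difference -0.24, adjusted p = 0.0405), a call that was lost without any 1 of the 3 libraries (adjusted p = 0.0901 to 0.145). The DESeq2 Wald test did not call it either (adjusted p = 0.483). The ratio of Bmp1 to Tll1 was 304, with a counting interval of 241 to 389 for the Tll1 counts alone. Among the N-proteinases, Adamts2 was at 75.6, 77.5 and 72.6 TPM, Adamts14 at 28.1, 29.4 and 28.6 TPM and Adamts3 at 4.51, 4.88 and 4.60 TPM, in the same order in every library.

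The lysyl oxidases start the cross-linking of collagen and elastin outside the cell, and all 5 genes were above 1 TPM. Loxl1, which is tied to elastic fibres, was at 616, 678 and 649 TPM. Loxl2, known for cross-linking type IV collagen, was at 205, 199 and 195 TPM. Lox itself was at 131, 129 and 132 TPM. Loxl3 was at 79.5, 76.3 and 75.7 TPM, and Loxl4 at 2.5, 3.42 and 3.45 TPM. The order Loxl1, Loxl2, Lox, Loxl3, Loxl4 was the same in every library, and the log2 ratio of Lox to Loxl1 was -2.31 ± 0.08. Exons of Lox share 133 bases with the opposite-strand gene Zfp474, which had no count, and those of Loxl3 share 43 bases with Htra2, which was at 58.9 ± 1.23 TPM.

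**Figure D4:**
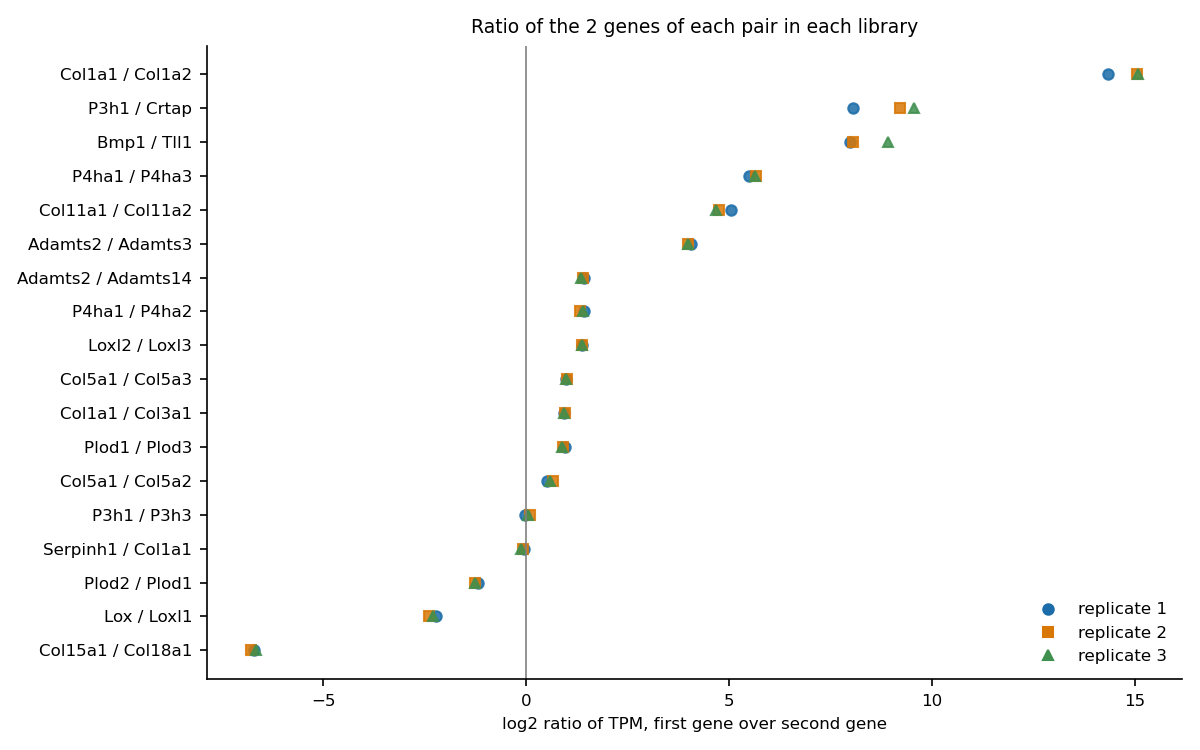
Each row is a pair of genes of related function, and points give the log2 ratio of their TPM in replicates 1, 2 and 3. Of 18 pairs with a ratio, the first gene was higher in every library in 13, the second in 4 (Serpinh1 and Col1a1, Plod2 and Plod1, Lox and Loxl1, Col15a1 and Col18a1), and only P3h1 and P3h3 changed order. The ratios that involve Col1a2, Crtap and Tll1 spread most, with SDs of 0.41, 0.79 and 0.52.

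No exact test was run on these ratios, since 3 libraries cannot give a p under 0.25 in a sign-flip test. For pairs in which both genes had over 100 counts, the SD of the log2 ratio was at most 0.20. Ordered by mean level, 20 of the 50 neighbouring genes among the 51 had overlapping library values.

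The 3 libraries differed little. Among the 24 genes at 100 TPM or more, the coefficient of variation ran from 0.549% for Serpinh1 to 5.06% for Col14a1, with a median of 2.31%, beside 2.54% for all genes at that level. A chi-square test of each gene's 3 counts against the library totals (Benjamini-Hochberg adjusted over genes with a summed count of at least 30) called 13 of 45 genes (28.9%), against 4.99% of all genes tested. Called genes had a median summed count of 33552, and genes not called one of 4455. Of genes with a summed count of at least 10000, the test called 12 of 18 (66.7%) here and 26.6% in the whole table. These 2 sets were not matched further for depth, and the cause of the difference was not tested. The called genes were 11 chain genes, Loxl1 and Pcolce, and their highest library was 1.03 to 1.11 times their lowest. Col1a1 had the lowest adjusted p (4.56e-27, highest over lowest 1.03) with 473175 summed counts, and Loxl1 was next (3.22e-11, 1.10). Serpinh1, with 154106 summed counts, was not called (adjusted p = 0.699), nor was Col4a1 with 107926 (adjusted p = 0.0807). Without replicate 1 the test called 3 of the genes, and without replicate 2 it called 7. The test compares these libraries and not conditions.

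**Figure D5:**
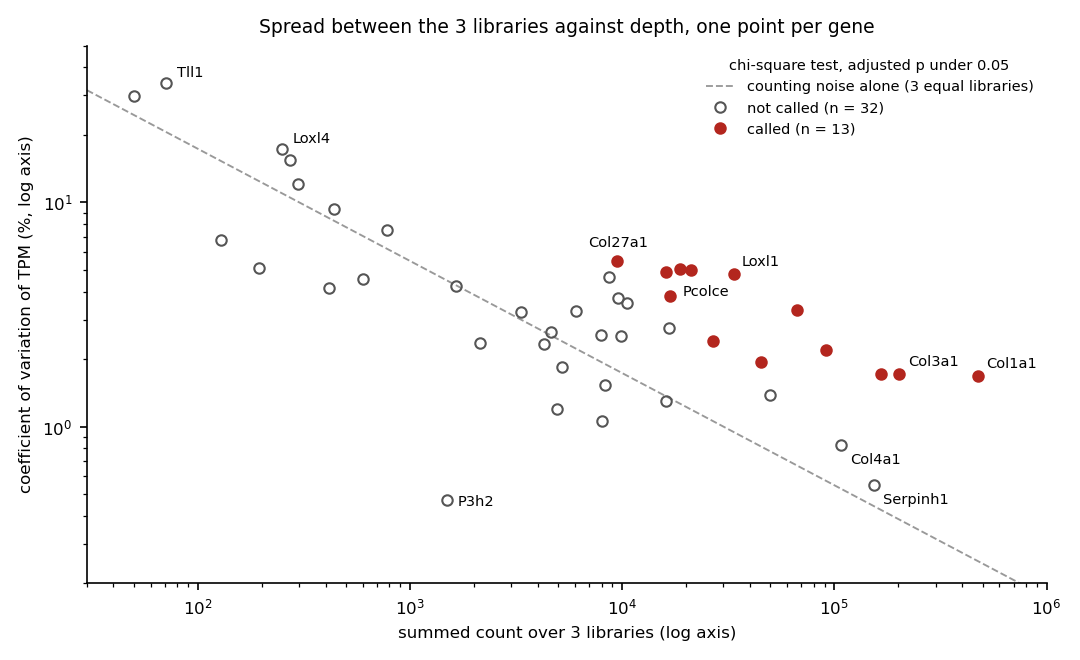
Points give the coefficient of variation of TPM over the 3 libraries against the summed count, both on log axes, for the 45 genes tested, with filled points for the 13 called. The dashed line is the spread that counting noise alone would give; Col1a1, Col3a1 and Loxl1 lie above it, and Serpinh1 and Col4a1 near it.

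Exon lengths in the deposited annotation set the chain genes as a group, most of all the fibril-forming ones, apart from the processing genes. Collagen triple helices are encoded in exons built on units of 9 bases, since a glycine repeat takes 9 bases. In the 9 fibril-forming chain genes other than Col1a2, 428 of 515 internal exons (83.1%) had a length that is a multiple of 9, and 247 (48.0%) were exactly 54 bases long. In the other 17 chain genes these shares were 54.2% and 10.4%. In 23 processing genes, with Crtap left out, they were 11.6% and 0.643%, beside 13.3% and 0.426% for all other genes. Not every chain gene was high by the first share. Col4a1, with 20 of 50 internal exons, was at 40.0%, and Col14a1 was at 26.1%. Col26a1 was at 16.7%, and Col8a1 had no such length among its 2 internal exons.

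Partner genes that act on or with secreted collagen, or supply the pathway, were taken from fixed lists. The counts below stand beside 78.4% of all genes with a count called above 1 TPM and 17.8% called below. Of the list of fibril partners, 8 of 9 measured genes were above 1 TPM and Fmod was below. The highest were the proteoglycan gene Bgn at 1206 ± 31.4 TPM, fibronectin Fn1 at 932 ± 42.6 and decorin Dcn at 842 ± 20.3. Of the collagen receptors, 8 of 10 were above 1 TPM, Itga10 was below and Lair1 passed in neither direction. The integrin subunit gene Itgb1 was at 964 ± 25.2 TPM, the discoidin receptor gene Ddr1 at 297 ± 17.0 and the endocytic receptor gene Mrc2 at 93.0 ± 1.32. Of the collagen-degrading enzymes, 6 of 9 were above 1 TPM and Mmp1 and Mmp8 had no count. The highest were Mmp14 at 807 ± 13.3 TPM, Mmp2 at 729 ± 6.88 and Ctsk, the collagenolytic cathepsin, at 147 ± 5.01. All 9 measured genes of the export list were above 1 TPM, led by Kdelr2, Sar1a and Sec13 at 289 ± 5.83, 285 ± 5.09 and 203 ± 3.68 TPM. Of the genes for cofactor and proline supply, Pepd and Atp7a were above 1 TPM at 59.7 ± 1.18 and 36.0 ± 1.77 TPM, Aldh18a1 was below and Slc23a1 had no count. Aldh18a1 is also listed at 2 places.

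Markers of other cell types that can make collagen were measured beside the genes above. Here too, the share above 1 TPM among all genes with a count was 78.4%. The fibroblast markers Pdgfra and Pdgfrb were at 267 ± 1.71 and 173 ± 3.23 TPM, beside the precursor markers Sox10 at 612 ± 26.0 and Erbb3 at 581 ± 14.3. All 5 measured perineurial and meningeal markers were above 1 TPM (summed 374 to 379 TPM), as were all 8 mural markers (796 to 845 TPM). Most of the perineurial and meningeal sum came from Itgb4, with a mean of 236 TPM. The other markers of that list had means from 1.35 TPM for Aldh1a2 to 65.3 TPM for Foxc1. Most of the mural sum came from Tagln and Acta2, with means of 466 and 317 TPM. The remaining mural markers were far lower, with means from 1.69 TPM for Myh11 to 7.9 TPM for Abcc9. All 4 measured neuronal markers were above 1 TPM (480 to 509 TPM). Nearly all of that sum came from Tubb3, Prph and Nefl, with means of 185, 176 and 130 TPM, while Isl1 was at 2.23 TPM. Endothelial markers summed to 34.0 to 36.4 TPM, with 3 of 5 above and Pecam1 and Kdr below, and macrophage markers to 24.2 to 28.2 TPM, with 4 of 5 above and Ptprc below. The part of each cell type in the collagen levels was not tested.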

How the data were processed

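The authors deposited raw counts, gene lengths in bases and TPM made from these. TPM recomputed from the deposited counts differed by at most 0.0005. STAR 2.5.2b, Subread and build rn6 are named per the submitters' processing notes. The annotation, the strand setting and the treatment of multi-matching reads were not given in the sources used here. A total of 2 rows with no name were dropped, which hold no counts.

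The genes, roles, pairs and lists were chosen with earlier results of these data known. Each gene with a count was fitted with limma 3.58.1 (R 4.3.3) on log2(TPM + 1), where adding 1 shrinks the differences of low genes. Chi-square tests used a minimum summed count of 30. edgeR 4.0.16 and DESeq2 1.42.0 served for alternative scalings, and DESeq2 for a Wald test on the counts. The levels of 100 TPM and 10000 summed counts were chosen after seeing the data. Per-library values are given for the 4 highest genes of each role, genes listed at 2 places and the 3 genes nearest 1 TPM on either side, and for most others. A gene counts as listed at 2 places where its exons lie on more than 1 chromosome or strand, or repeat the same lengths across a gap of at least 10000 bases. The tests were tested on simulated data. Promoters came from RefSeq, build GRCr8. A protein table was not used here, so no protein features are given. Counting intervals are exact Poisson at 95% and, like floors, hold for counting error alone, as the reads have no molecular identifiers. Some results of the partner list for cofactor and proline supply are not reported here.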

Additional observations from a re-analysis of the deposited data

How the results depend on the processing

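All 43 genes above 1 TPM kept that call under every alternative tried: other pseudocounts, filters, reference levels and scalings, a DESeq2 Wald test, and leaving out each library. The 6 genes below were fewer under some settings. They numbered 3 where genes under a mean of 0.1 TPM were not tested, 3 against 0.5 TPM and 2 by the DESeq2 Wald test. With 1 library left out, 4 to 5 were below. Without the genes listed at 2 places, which here are Col1a2 and Crtap, 4 were below. Of the 6, Tll1, Crtap, Col17a1 and Col4a4 lost the call under at least 1 setting, and Tll1 turned to a log2 difference of 0.18 against 0.5 TPM. With no filter on low values, 7 were below, Col4a3 and Col6a4 among them and Tll1 not. The number whose counts differed between libraries was 15 with TMM or DESeq2 scaling and 3 to 13 when 1 library was left out. At 200 TPM instead of 100, 15 genes passed. Pairs with the first gene higher in every library numbered 13 to 14 under all settings, and no mean ratio changed direction. The fibril-forming share was 55.8% of counts instead of 42.0% of TPM, as counts carry no correction for length. Fewer genes or samples were tested under the filters and without a library; for the other changes the cause was not tested. No paired analysis was possible because the labels give 1 group. Depth limits the 5 genes with at most 20 summed counts, whose levels rest on counting noise.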
